A study of Mus musculus with 8 samples.

Results

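The endosomal sorting genes described here are the 73 genes of 45556 in the count table whose symbols belong to the Vps, Snx, Chmp and Ehd series. They comprised 30 Vps genes, 30 Snx genes, 9 Chmp genes and 4 Ehd genes, and were chosen by symbol alone. RNA sequencing was done on B16F10, a melanoma line from the C57BL/6 mouse that grows in culture and in syngeneic animals. Control cells (pLKO) carried the empty lentiviral hairpin vector, and knockdown cells (shDRG2) carried a hairpin against Drg2, which encodes a GTP-binding protein. Each line was either left unstimulated or given recombinant mouse IFN-γ (interferon-gamma) for 24 hours at 5 ng/ml, which made 4 groups of 2 libraries. The labels name 1 shDRG2 line and a control with no hairpin, so effects of the hairpin other than on Drg2 cannot be told apart from the knockdown. They do not say whether the replicates were separate cultures, so every p-value measures only the spread between these libraries, which may be technical.

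Endosomes sort internalised membrane proteins either back to the plasma membrane or the Golgi, or onward to lysosomes for degradation. Retromer and sorting nexins carry cargo along the recycling and retrograde routes, while the ESCRT complexes bend and cut membrane inward to make the vesicles of multivesicular bodies, with the VPS4 ATPases taking the ESCRT-III filaments apart. Tethering complexes (HOPS, CORVET and GARP) bring vesicles to their target membranes, VPS13 proteins move lipid between membranes, and the EHD ATPases shape recycling tubules and caveolae. Surface proteins such as PD-L1, the checkpoint ligand that the study follows, pass through these routes.

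Library totals ran from 25422758 to 36654519 counts. Levels are in CPM, counts over the library total after TMM adjustment. Unstimulated control cells had 76.3 and 68.6 CPM of Drg2, the targeted gene, against 8.68 and 9.34 CPM in unstimulated knockdown cells. With IFN-γ the gene had 72.3 and 64.3 CPM in pLKO against 6.46 and 7.66 CPM in shDRG2, so the lines matched their labels. The 7 melanocytic markers (Pmel, Mlana and others) summed to between 9621 and 14944 CPM in a library. The 6 immune markers summed to at most 1.20 CPM, with Cd3e, Adgre1 and Itgam at 0 in every library. Of 73 sorting genes, 71 passed the filter on low counts. Chmp4c, an ESCRT-III subunit, had 4 counts over all libraries and Snx31, a FERM-domain nexin, had 15, and neither was tested.

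Most of the sorting machinery was readily detected, and its levels per kilobase of exon covered a wide range. Chmp4b, the main filament-forming ESCRT-III subunit, had the highest mean level over the 8 libraries, at 113 CPM per kilobase. Snx3, which brings retromer to early endosomes, stood next at 111 CPM per kilobase. Behind them came the ESCRT-III subunits Chmp2a at 63.1 and Chmp3 at 62.7 CPM per kilobase, and the retromer cargo-binding subunit Vps26a at 55.0. Vps25, an ESCRT-II subunit, read 72.5 CPM per kilobase, but Ramp2 on the same strand covers 67.2% of its exon bases, so its reads cannot be cleanly assigned. Vps35, the retromer scaffold, had 30.1 CPM per kilobase. At the lower end, Snx32 stood at 0.368, Snx22 at 0.147 and Snx20 at 0.0409 CPM per kilobase. On the opposite strand, Ppib covers 28.5% of the exon bases of Snx22 and Cfl1 covers 13.2% of those of Snx32. The strandedness of the libraries is not stated, so reads there cannot be cleanly assigned. Among the EHD genes the order was Ehd1 at 25.2, Ehd4 at 18.1, Ehd2 at 6.49 and Ehd3 at 2.93 CPM per kilobase.

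**Figure D1:**
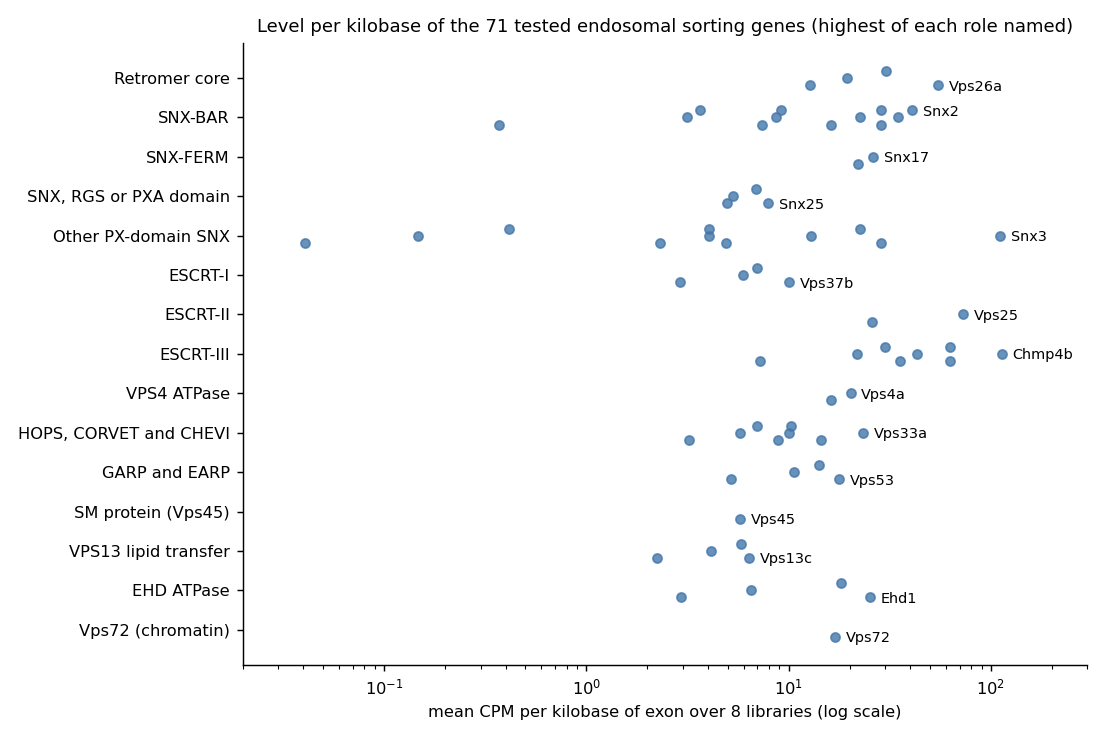
Mean level over the 8 libraries, in CPM per kilobase of exon on a log scale, of the 71 tested endosomal sorting genes, grouped by role, with each point 1 gene and the highest gene of each role named. Chmp4b (113) and Snx3 (111) stand highest, and Snx20 (0.0409) lowest.

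The first comparison asked whether Drg2 knockdown altered the sorting machinery of unstimulated cells. One gene changed: Ehd2, which encodes an ATPase that sits at the neck of caveolae and holds them at the cell surface, was 1.94-fold higher in shDRG2 cells. No retromer, sorting nexin, ESCRT or tether gene of the set passed the test. The 1 call among 71 genes is a share of 1.41%, beside 1.2% of all 13500 genes tested (0.467% higher and 0.733% lower). The median log2 fold change of the 71 genes was 0.05, beside 0.01 over all genes, and 62 of them lay within 0.25 on the log2 scale of no change, as did 75.7% of all genes. At an unadjusted p under 0.05 there were 13 of the 71, beside 1723 of the 13500.

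Ehd2 (ENSMUSG00000074364.6, GRCm38 chr7:15946958-15967567, minus strand) measured 20.0 and 21.2 CPM in pLKO libraries and 43.8 and 36.0 CPM in shDRG2. With IFN-γ it measured 24.5 and 22.0 CPM in pLKO libraries and 50.9 and 47.2 CPM in shDRG2. All 4 knockdown libraries were above all 4 control libraries, with or without IFN-γ. In bulk RNA, more cells with the transcript and more transcript per cell cannot be told apart. The log2 fold change was 0.95 (SE 0.110, 95% interval 0.71 to 1.20, edgeR adjusted p = 0.00349, n = 2 libraries per group) without IFN-γ. With IFN-γ it was 1.08 (SE 0.109, 95% interval 0.83 to 1.32, edgeR adjusted p = 0.00141), a 2.11-fold difference. The call held under all 17 alternative settings in both comparisons, with adjusted p-values no higher than 0.0460 without and 0.0231 with IFN-γ.

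None of the other EHD genes passed. Ehd1, which acts in recycling from the endocytic recycling compartment, stood at 108 and 93.3 CPM in pLKO and 115 and 92.4 CPM in shDRG2, which overlap. Its log2 difference was 0.05 (95% interval -0.24 to 0.33). Ehd4, an early endosome member, differed by -0.00 (95% interval -0.19 to 0.19). Ehd3, a close relative of Ehd1, had 23.3 and 23.6 CPM in pLKO and 19.0 and 18.4 CPM in shDRG2, which do not overlap, with a log2 difference of -0.32 (edgeR adjusted p = 0.166). The differences between Ehd2 and these genes were not themselves tested.

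**Figure D2:**
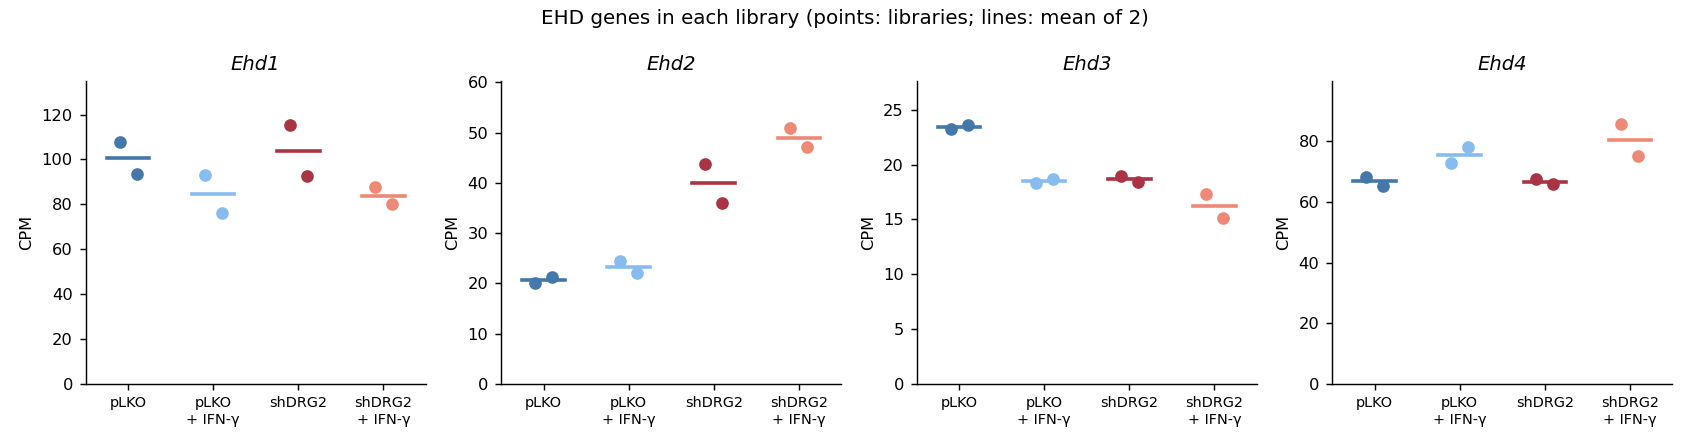
CPM of Ehd1, Ehd2, Ehd3 and Ehd4 in each of the 8 libraries, each panel with its own linear axis from 0; points are libraries and lines are the mean of the 2 libraries of a group. Ehd2 lies between 20.0 and 24.5 CPM in pLKO cells and between 36.0 and 50.9 CPM in shDRG2 cells, while the lines overlap for Ehd1.

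Genes around Ehd2 and genes of caveolae were examined beside it. Neighbours were found by matching symbols to GENCODE, so genes that stand in the table under older symbols were left out. Within 500 kb of Ehd2, 10 matched genes were tested and none passed in either knockdown comparison. Over all genes tested 1.2% passed without and 1.67% with IFN-γ, so few calls would be looked for among 10 genes. Their log2 differences ran from -0.24 to 0.13 without IFN-γ and from -0.25 to 0.11 with it. The nearest of these by start, Napa, differed by 0.09 and -0.03. Of the caveolar coat genes, Cavin1 (listed as Ptrf) differed by 0.34 (edgeR adjusted p = 0.240), Cavin2 (listed as Sdpr) by 0.39 (adjusted p = 0.174) and the caveolins Cav1 by 0.44 (adjusted p = 0.475) and Cav2 by 0.10 (adjusted p = 0.770) without IFN-γ. With IFN-γ these differences were 0.31, 0.17, -0.09 and -0.04. Cavin3 (listed as Prkcdbp) was at 0 in every library. The 5 endothelial markers summed to between 5.04 and 5.97 CPM in shDRG2 against 1.50 to 2.16 CPM in pLKO, most of it Vwf, which was 3.77-fold higher in shDRG2 (edgeR adjusted p = 0.0142). Cdh5 and Kdr were at 0 in every library. Tek had 0.0622 and 0.0388 CPM in unstimulated shDRG2 and 0 in every other library. Pecam1 was detected in every library, at 0.122 to 0.594 CPM. With IFN-γ the same sum was 0.520 to 0.700 CPM in shDRG2 and 0.457 to 0.667 CPM in pLKO, and the log2 difference of Ehd2 was 1.08. The part of these markers in the Ehd2 difference was not tested.

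For the sorting genes that did not pass, the intervals rest on the spread between these libraries, which may be technical, and are for 1 gene at a time. Vps35, at 252 and 226 CPM in pLKO and 272 and 248 CPM in shDRG2, differed by 0.12 on the log2 scale (95% interval -0.06 to 0.30). Vps26a, Vps26b and Vps29, the other retromer subunits, differed by 0.08, -0.04 and 0.08. Snx27, which pairs with retromer to return PDZ-ligand cargo to the surface, differed by 0.08 (95% interval -0.08 to 0.23). Snx17, which recycles integrins and LDL-receptor relatives, differed by 0.07 (95% interval -0.22 to 0.35). Vps4a and Vps4b, the ATPases that disassemble ESCRT-III, differed by 0.08 and 0.05. On that spread alone, these intervals leave out a 1.5-fold change for each of Vps35, Snx27 and Snx17. They do not show that the lines are equal.

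No other gene passed. The widest differences after Ehd2 were those of Vps37d, Vps33b, Snx30 (-0.38), Ehd3 (-0.32) and the lipid-transfer gene Vps13a (0.31). Vps37d, a minor ESCRT-I subunit, measured 2.60 and 3.16 CPM in pLKO libraries and 2.08 and 1.63 CPM in shDRG2, a log2 difference of -0.62 (edgeR adjusted p = 0.220). Vps33b, which acts in the CHEVI complex, differed by -0.39 (adjusted p = 0.315), and Chmp7, the ESCRT-III subunit of the nuclear envelope, by -0.30 (adjusted p = 0.0991).

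**Figure D3:**
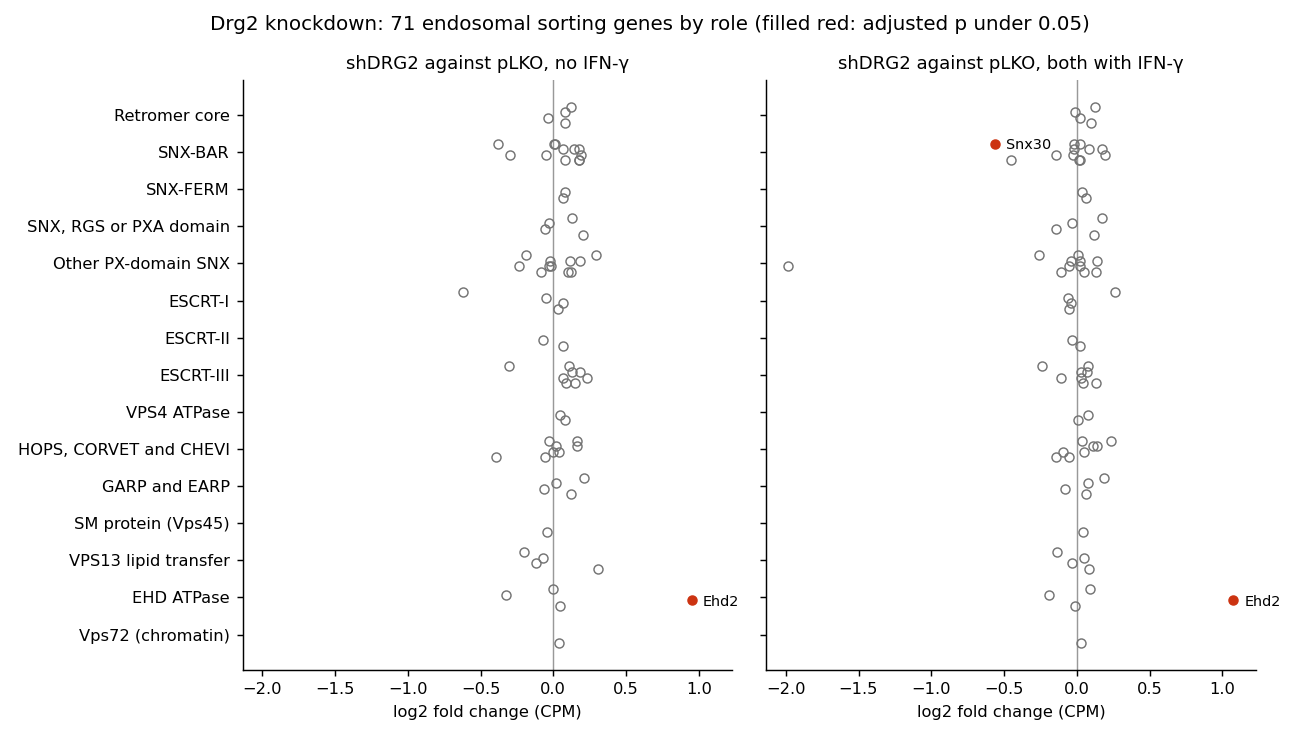
Log2 fold change of CPM in shDRG2 against pLKO without IFN-γ (left) and with IFN-γ (right) for the 71 tested genes by role, each point 1 gene, filled red where the edgeR adjusted p is under 0.05. Ehd2 is the only filled point on the left (0.95), and Ehd2 (1.08) and Snx30 (-0.56) are filled on the right.

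The second comparison put the lines side by side after IFN-γ. Ehd2 was again higher in shDRG2 cells, and Snx30, a BAR-domain nexin that pairs with Snx4 in recycling, was 1.48-fold lower. These 2 of 71 genes are a share of 2.82%, beside 1.67% of all genes tested (0.504% higher and 1.17% lower). The median log2 fold change was 0.02 (0.00 over all genes), and 65 of the 71 lay within 0.25 of no change, as did 77.1% of all genes. An unadjusted p under 0.05 was found for 7 of the 71, beside 1616 of the 13500.

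Snx30 (GRCm38 chr4:59805840-59904737, plus strand) measured 25.2 and 30.3 CPM in pLKO with IFN-γ and 17.9 and 19.7 CPM in shDRG2 with IFN-γ. Without IFN-γ it measured 37.2 and 39.2 CPM in pLKO libraries and 28.3 and 30.6 CPM in shDRG2. The knockdown libraries were the lower ones at each condition, without overlap. The log2 difference with IFN-γ was -0.56 (SE 0.108, 95% interval -0.80 to -0.32, edgeR adjusted p = 0.0321), and without it -0.38 (SE 0.105, adjusted p = 0.135). The call with IFN-γ was lost in 8 of 17 alternatives, with an adjusted p of up to 0.267, among them the fits without pLKO replicate 1, pLKO replicate 2, replicate 2 of pLKO with IFN-γ, and either replicate of shDRG2 with IFN-γ. Its binding partner Snx4 differed by 0.07 without and -0.02 with IFN-γ. None of the 6 neighbours tested within 500 kb, found by matching symbols as for Ehd2, passed, beside 1.2% of all genes without and 1.67% with IFN-γ.

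Snx20, a nexin of leukocytes, had the widest difference with IFN-γ but only 65 counts over all libraries. It measured 0.334 and 0.396 CPM in pLKO with IFN-γ and 0.0666 and 0.109 CPM in shDRG2 with IFN-γ, and the log2 difference of -1.98 did not pass (edgeR adjusted p = 0.152). Snx32, a brain-enriched relative of Snx5 and Snx6, differed by -0.45 (adjusted p = 0.592) at 1.10 to 1.68 CPM. The retromer subunits differed by -0.01 to 0.13, and Chmp4b by 0.04 (95% interval -0.11 to 0.20).

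IFN-γ, in contrast to the knockdown, moved sorting genes of most classes in both lines. Snx10, which serves endosome and lysosome homeostasis and the vacuolar ATPase, rose 4.70-fold in pLKO cells. Several ESCRT-III genes rose, led by Chmp4b and Chmp5, while the ESCRT-I subunit Vps37b and the nexins Snx30, Snx25, Snx27 and Snx1 fell. No retromer core gene and no VPS13 gene passed. In pLKO cells 12 genes rose and 8 fell, 20 of 71 or 28.2%, beside 28.1% of all genes tested. By direction the shares were 16.9% and 11.3%, beside 15.4% and 12.7% of all genes. In shDRG2 cells 14 rose and 7 fell, 29.6% in all, beside 31.4% of all genes, and the shares by direction were 19.7% and 9.86%, beside 16.2% and 15.2%. The share of sorting genes that responded was thus close to that of the whole table. With scaling by library size alone the split in shDRG2 cells was 10 higher and 8 lower, and with upper-quartile scaling 9 and 9. Median log2 fold changes were 0.12 in pLKO and 0.09 in shDRG2, beside 0.01 and 0.00 over all genes.

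Marker sums also moved with IFN-γ, and their part in these results was not tested. The 5 fibroblast markers summed to 15.8 to 19.5 CPM without and 4.16 to 5.74 CPM with IFN-γ, nearly all Col1a2, with the other 4 under 1 CPM in each group and Dcn at 0 in every group except shDRG2 with IFN-γ. The 5 endothelial markers summed to 1.50 to 5.97 CPM without and 0.457 to 0.700 CPM with IFN-γ. The immune sum, almost all Cd14, was 0.153 to 0.311 CPM without and 0.593 to 1.20 CPM with IFN-γ. The melanocytic sum was 12911 to 14944 CPM without and 9621 to 11057 CPM with IFN-γ.

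Snx10 (GRCm38 chr6:51523901-51590679, plus strand) gave the widest response. It measured 89.6 and 89.5 CPM in pLKO libraries and 412 and 429 CPM after IFN-γ. In shDRG2 cells it stood at 98.9 and 92.9 CPM and at 461 and 462 CPM after IFN-γ. Every stimulated library was above every unstimulated one. The log2 fold change was 2.23 (SE 0.0749, 95% interval 2.07 to 2.40, edgeR adjusted p = 6.47e-09) in pLKO and 2.27 (SE 0.0750, 95% interval 2.10 to 2.43, adjusted p = 5.15e-09) in shDRG2. Of the 11 nexins with a PX domain and no BAR, FERM or RGS domain, Snx10 alone rose in pLKO cells, and Snx10 and Snx11 rose in shDRG2 cells. These are shares of 9.09% and 18.2%, beside 15.4% and 16.2% of all genes tested. Snx11 differed by 0.26 in pLKO (adjusted p = 0.0679) and rose by 0.29 in shDRG2 (adjusted p = 0.0410). Snx3 differed by -0.03 and -0.13. Below 1 CPM, Snx22 differed by 0.95 and 0.66, and Snx20 by 0.17 and -1.58, without passing.

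Promoters of genes that respond to IFN-γ are known to carry gamma-activated sites and interferon-stimulated response elements, so the promoters of the sorting genes were read for both motifs. RefSeq windows on GRCm38.p6, from 250 bases before to 50 bases after an annotated start, covered 50 of the 73 genes with 61 windows. Searched on both strands, GAAANNGAA, the core of the response element, was in 8.56% of all 32851 windows and in 5 of the 61 (8.20%). Of the windows of genes tested, 7.06% held it. Of 16 sorting genes called higher with IFN-γ in either line 13 had windows, and of 8 called lower 5 had windows. The core was in 4 of 15 windows of the higher genes (26.7%) and in 0 of 6 windows of the lower ones. The difference between these shares was not tested. TTCNNNGAA, the gamma-activated site, was in 8.30% of all windows and 6.89% of those of genes tested. It was in 3 of the 61 (4.92%), in 1 of the 15 (Vps53) and in 1 of the 6 (Snx25). A match is a description of these letters only.

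The windows of the 4 risen genes with the response-element core are shown to let the matches be read beside the responses, 5′ to 3′ on the strand of the gene, with matches to GAAANNGAA on either strand in capitals. For Snx10, whose response was the widest, the 250 bases before its first start are shown as well; they hold neither motif. The stretches are chr6:51523653-51523902 and chr6:51524010-51524259 for the first Snx10 start and the last of its 3, chr13:18717042-18717291 for Vps41 and chr3:96058456-96058705 for Vps45, on the plus, plus, plus and minus strands. For Chmp5 only the 29 bases around the match are shown, at chr4:40948547-40948575 on the plus strand.
Snx10, first start: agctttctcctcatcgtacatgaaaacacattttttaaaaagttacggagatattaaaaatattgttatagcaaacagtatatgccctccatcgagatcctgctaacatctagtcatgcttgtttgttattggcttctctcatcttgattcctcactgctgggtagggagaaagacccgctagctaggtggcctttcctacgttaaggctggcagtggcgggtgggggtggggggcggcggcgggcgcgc
Snx10, last start: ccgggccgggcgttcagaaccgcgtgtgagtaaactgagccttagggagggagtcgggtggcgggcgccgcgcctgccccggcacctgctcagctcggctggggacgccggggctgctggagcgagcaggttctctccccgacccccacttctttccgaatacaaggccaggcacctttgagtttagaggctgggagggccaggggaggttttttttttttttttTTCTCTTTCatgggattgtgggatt
Chmp5: gcgactacgcTTCCGTTTCtggttttcct
Vps41: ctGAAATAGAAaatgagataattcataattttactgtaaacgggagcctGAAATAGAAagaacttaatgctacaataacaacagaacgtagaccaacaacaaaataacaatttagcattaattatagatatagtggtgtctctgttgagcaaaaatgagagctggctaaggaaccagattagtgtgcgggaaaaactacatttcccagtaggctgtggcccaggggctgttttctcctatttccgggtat
Vps45: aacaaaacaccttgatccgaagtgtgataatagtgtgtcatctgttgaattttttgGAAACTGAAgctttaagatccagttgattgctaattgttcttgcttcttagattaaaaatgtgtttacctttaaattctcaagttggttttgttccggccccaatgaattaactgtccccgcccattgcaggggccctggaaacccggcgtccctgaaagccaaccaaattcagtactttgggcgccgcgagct
Counted from the start, the Snx10 match lies at -25 to -17, the Chmp5 match at 5 to 13, the Vps45 match at -194 to -186, and the Vps41 matches at -248 to -240 and -201 to -193. The letters are GAAATAGAA at both places in Vps41 and GAAACTGAA in Vps45, while Snx10 and Chmp5 carry the motif on the other strand. The 4 genes differed widely in response, from 0.27 for Vps41 to 2.23 for Snx10 on the log2 scale in pLKO cells.

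Of the 8 tested ESCRT-III subunits, 4 rose and 1 fell in pLKO cells, where 15.4% of all genes rose and 12.7% fell. In shDRG2 cells 3 rose and 1 fell, beside 16.2% and 15.2% of all genes. Chmp4b measured 178 and 180 CPM in pLKO libraries and 267 and 273 CPM after IFN-γ. In shDRG2 cells it stood at 192 and 187 CPM and at 283 and 274 CPM after IFN-γ. The stimulated libraries were all above the unstimulated ones, and the log2 fold changes were 0.60 (SE 0.0692, edgeR adjusted p = 1.13e-04) and 0.55 (SE 0.0691, adjusted p = 1.63e-04).

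Chmp5, which binds the VPS4 cofactor VTA1 (LIP5), measured 36.5 and 37.3 CPM in pLKO libraries and 53.4 and 56.5 CPM after IFN-γ. In shDRG2 cells it stood at 37.2 and 40.0 CPM and at 50.6 and 51.2 CPM after IFN-γ. Stimulated libraries were again the higher ones without overlap, and the log2 fold changes were 0.58 (edgeR adjusted p = 3.01e-04) and 0.40 (adjusted p = 0.00275). Chmp2a, which with Chmp3 recruits VPS4, rose by 0.40 in pLKO (adjusted p = 0.00316) and differed by 0.20 in shDRG2 (adjusted p = 0.0741). Chmp7 rose by 0.23 (adjusted p = 0.0456) and 0.29 (adjusted p = 0.0147). Chmp6, which links ESCRT-II to the filament, fell by 0.23 (adjusted p = 0.0363) and 0.34 (adjusted p = 0.00435). Chmp3 differed by 0.03 and 0.00. Vps4b rose by 0.28 (adjusted p = 0.0154) and 0.31 (adjusted p = 0.00821), while its paralogue Vps4a differed by -0.10 and -0.17 without passing.

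The ESCRT-I subunits of the Vps37 family are alternatives to each other in the complex. Vps37b fell and Vps37d rose in both lines. Vps37b measured 33.5 and 33.9 CPM in pLKO libraries and 21.4 and 22.1 CPM after IFN-γ. In shDRG2 it measured 34.7 and 35.9 CPM, and 21.9 and 20.5 CPM after IFN-γ. It fell by 0.63 (SE 0.0824, edgeR adjusted p = 2.59e-04) and 0.74 (SE 0.0824, adjusted p = 7.40e-05) on the log2 scale, with every stimulated library below every unstimulated one. Of the exon bases of Vps37b, 32.9% are also covered by Hip1r from the opposite strand, and the strandedness of the libraries is not stated, so reads of the pair cannot be told apart there. Vps37d (GRCm38 chr5:135072900-135078266, minus strand) measured 2.60 and 3.16 CPM in pLKO libraries and 5.60 and 6.30 CPM after IFN-γ. In shDRG2 it measured 2.08 and 1.63 CPM, and 7.53 and 6.81 CPM after IFN-γ. It rose 2.07-fold (log2 1.05, adjusted p = 0.00200) in pLKO and 3.83-fold (log2 1.94, adjusted p = 3.58e-05) in shDRG2. Vps37a, the most widely expressed of them, differed by 0.15 and 0.06, and Vps37c was not called in either line. The ESCRT-II subunits Vps25 (0.15 and 0.11) and Vps36 (0.02 and 0.06) did not pass.

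**Figure D4:**
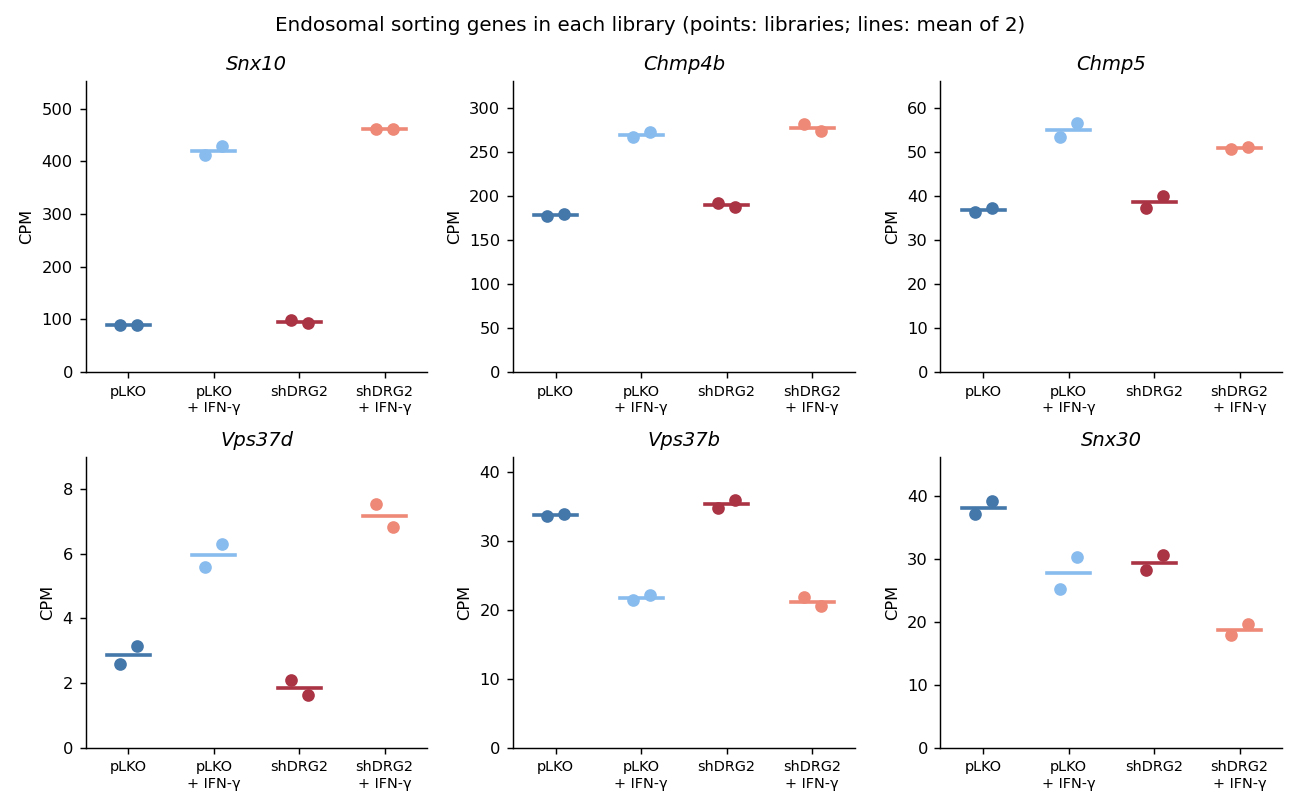
CPM of 6 endosomal sorting genes in each of the 8 libraries, each panel with its own linear axis from 0; points are libraries and lines the mean of the 2 libraries of a group. Snx10, Chmp4b, Chmp5 and Vps37d are higher and Vps37b lower after IFN-γ in both lines, with Snx10 at 89.5 to 98.9 CPM without and 412 to 462 CPM with IFN-γ, and Snx30 is lowest in shDRG2 cells with IFN-γ.

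Among the BAR-domain nexins, which sense and shape tubules, 1 rose and 3 fell of 12 in pLKO cells, beside 15.4% and 12.7% of all genes. In shDRG2 cells 2 rose and 3 fell, beside 16.2% and 15.2%. Snx30 fell by 0.46 (edgeR adjusted p = 0.00842) and 0.65 (adjusted p = 0.00115). Snx1, a partner of Snx5 and Snx6 in the tubule coat, measured 103 and 104 CPM in pLKO libraries and 83.3 and 84.2 CPM after IFN-γ, a fall of 0.31 (adjusted p = 0.00798). In shDRG2 it fell by 0.46 (adjusted p = 6.10e-04). Its coat partner Snx5 differed by 0.14 and 0.16 without passing. Snx18, which acts in endocytosis and autophagy, fell by 0.26 (adjusted p = 0.0227) and 0.23 (adjusted p = 0.0309), while its relative Snx9, which binds dynamin, rose by 0.34 (adjusted p = 0.0334) and 0.31 (adjusted p = 0.0458). Snx7, a partner of Snx4, rose by 0.26 in shDRG2 (adjusted p = 0.0490).

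The cargo-selective nexins and retromer did not move alike. Snx27 measured 165 and 166 CPM in pLKO libraries and 133 and 128 CPM after IFN-γ. In shDRG2 it measured 171 and 178 CPM, and 134 and 134 CPM after IFN-γ. It fell by 0.34 (edgeR adjusted p = 0.00480) and 0.38 (adjusted p = 0.00202), with no overlap between stimulated and unstimulated libraries. Snx17 differed by -0.13 in each line. Snx25, a nexin with an RGS domain that acts on TGF-β receptor turnover, fell by 0.44 (adjusted p = 0.00242) and 0.39 (adjusted p = 0.00379), whereas its relatives Snx13 (0.22 and 0.13) and Snx19 (0.07 and 0.07) did not pass. None of the 4 retromer core genes passed, with Vps35 at 0.20 (adjusted p = 0.0970) and 0.21 (adjusted p = 0.0820) and Vps26a at 0.16 (adjusted p = 0.130) and 0.18 (adjusted p = 0.0830). Both were called higher in shDRG2 cells under the stricter filter on low counts.

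Tethers and fusion factors that passed were all higher. In pLKO cells 1 of 4 GARP and EARP genes, 2 of 8 HOPS, CORVET and CHEVI genes and Vps45 rose. In shDRG2 cells 2 of those 4, 1 of those 8 and Vps45 rose. Over all genes tested, 15.4% rose and 12.7% fell in pLKO, and 16.2% rose and 15.2% fell in shDRG2. Vps54, which anchors GARP at the Golgi, measured 63.7 and 62.6 CPM in pLKO libraries and 84.3 and 87.1 CPM after IFN-γ, and rose by 0.44 (edgeR adjusted p = 9.79e-04) and by 0.42 in shDRG2 (adjusted p = 0.00120). Vps53, shared by GARP and EARP, rose by 0.32 in shDRG2 (adjusted p = 0.0297) and differed by 0.26 in pLKO (adjusted p = 0.0686). Vps45, a Sec1/Munc18 protein that acts with endosomal SNAREs, rose by 0.38 (adjusted p = 0.0118) and 0.47 (adjusted p = 0.00322). Vps39 and Vps41, the ends of the HOPS tether, rose by 0.24 (adjusted p = 0.0435) and 0.27 (adjusted p = 0.0411) in pLKO. In shDRG2 Vps39 rose by 0.25 (adjusted p = 0.0313) and Vps41 differed by 0.24 (adjusted p = 0.0561). Vps33a, in the HOPS and CORVET core, differed by 0.12 and 0.18, and Vps33b by 0.06 and 0.31. The lipid-transfer genes Vps13a (0.35 and 0.13) and Vps13c (-0.03 and 0.09) did not pass. Vps72, whose symbol fits the series but whose product is a chromatin-remodelling subunit, differed by -0.02 and -0.03.

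Of the 4 EHD genes, 1 fell with IFN-γ in pLKO cells and 1 rose in shDRG2 cells, and Ehd2 was neither. That is 25% in each line, beside 28.1% of all genes tested in pLKO and 31.4% in shDRG2. Ehd3 fell by 0.34 in pLKO (edgeR adjusted p = 0.0245) and differed by -0.21 in shDRG2 (adjusted p = 0.142). Ehd4 rose by 0.27 in shDRG2 (adjusted p = 0.0348) and differed by 0.18 in pLKO (adjusted p = 0.159). Ehd1 differed by -0.25 and -0.31, and Ehd2 by 0.17 (adjusted p = 0.299) and 0.29 (adjusted p = 0.0597), without passing.

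**Figure D5:**
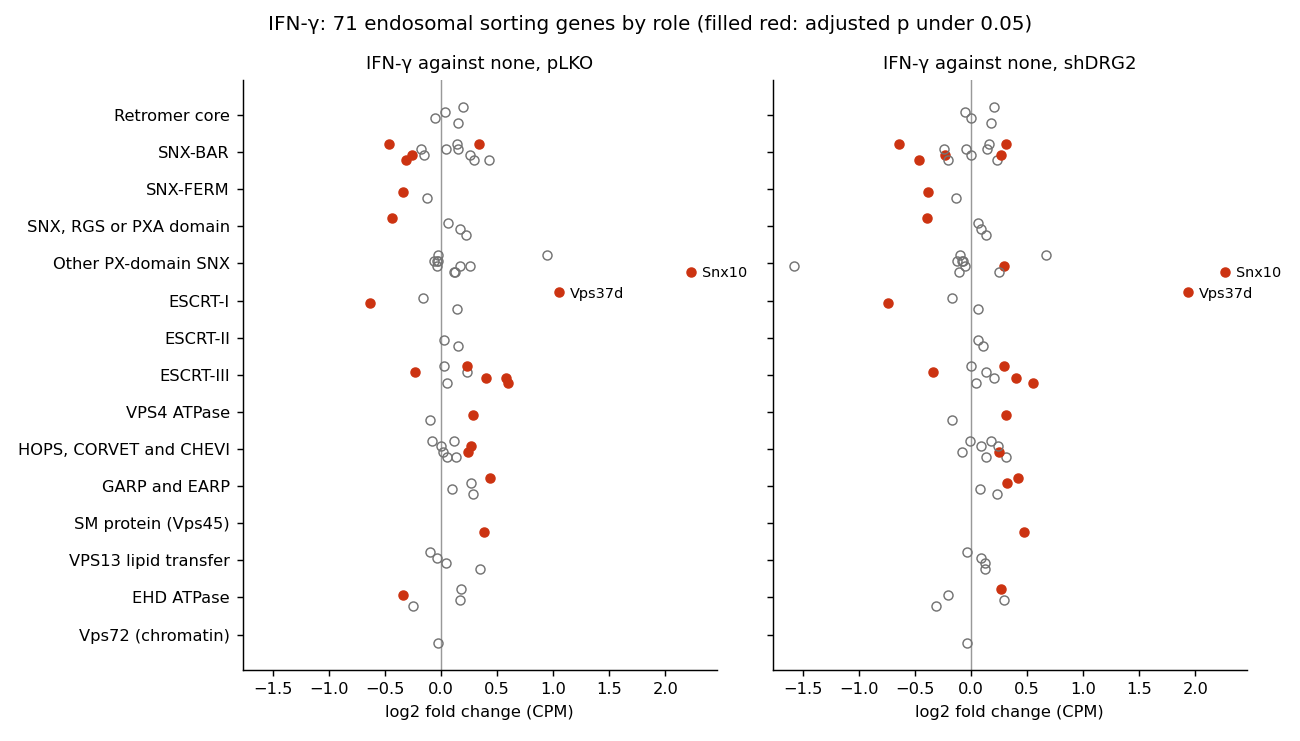
Log2 fold change of CPM with IFN-γ against none in pLKO (left) and shDRG2 (right) for the 71 tested genes by role, each point 1 gene, filled red where the edgeR adjusted p is under 0.05. Snx10 (2.23 and 2.27) and Vps37d (1.05 and 1.94) lie farthest to the right, and no retromer core, ESCRT-II or VPS13 point is filled.

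The calls differed in how they fared under the alternative settings. In pLKO cells those of Chmp2a, Chmp4b, Chmp5, Snx10, Snx25, Snx27, Vps37b, Vps37d and Vps54, 9 in all, held in every one of the 17 alternatives. In shDRG2 cells 12 did, those of Chmp4b, Chmp5, Chmp6, Snx1, Snx10, Snx25, Snx27, Snx30, Vps37b, Vps37d, Vps45 and Vps54. In pLKO cells Ehd3, Snx18 and Vps41 lost their call without any 1 of the 4 pLKO libraries. Chmp7 lost it without any of those or of the stimulated shDRG2 libraries, and Chmp6 without any of these or without shDRG2 replicate 2. Vps39 lost it without any library except pLKO replicate 2 and shDRG2 replicate 2. Snx1 and Snx30 lost it without pLKO replicate 2 or without replicate 1 of pLKO with IFN-γ, and Vps45 without replicate 2 of either pLKO group. Vps4b lost it without either unstimulated pLKO library or replicate 2 of pLKO with IFN-γ, and Snx9 without either unstimulated pLKO library or replicate 1 of pLKO with IFN-γ.

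In shDRG2 cells Snx7 lost its call without any 1 of the 8 libraries. Snx11 lost it without any except replicate 1 of pLKO with IFN-γ, and Snx18 without any except replicate 2 of that group. Snx9 lost it without any library except the stimulated pLKO ones, and Vps39 without any 1 of the shDRG2 libraries. Chmp7 and Vps53 lost it without shDRG2 replicate 2 or either stimulated shDRG2 library. Ehd4 lost it without either unstimulated shDRG2 library or replicate 1 of the stimulated ones, and Vps4b without replicate 1 of the stimulated ones.

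Other settings ended some of the same calls. With DESeq2 in place of edgeR, Chmp7 and Vps39 were not called in pLKO cells, nor Snx7, Snx9, Snx11 and Snx18 in shDRG2 cells. With scaling by library size alone or by the upper quartile, Chmp7, Vps39 and Vps41 were not called in pLKO, nor Snx7, Snx9, Snx11 and Vps39 in shDRG2. Upper-quartile scaling also ended the call of Ehd4 in shDRG2, and scaling by the size factors of DESeq2 that of Chmp7 in pLKO. With no filter on low counts Chmp6, Chmp7, Snx18 and Vps39 were not called in pLKO, nor Snx7, Snx11 and Snx18 in shDRG2. With only the 4 libraries compared in the fit, Chmp6, Chmp7, Snx9 and Vps39 were not called in pLKO, nor Snx7, Snx11 and Snx18 in shDRG2.

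The last comparison asked whether the IFN-γ response of these genes depended on Drg2. None of the 71 genes passed the test of the difference between the responses in edgeR or in DESeq2, beside 0.00741% of all genes in edgeR. At an unadjusted p under 0.05 there were 2 of the 71, Vps37d and Snx20, beside 321 of all 13500 genes. Of the IFN-γ calls, 17 were shared by the lines, which is 85% of the 20 in pLKO and 81% of the 21 in shDRG2. All 17 had the same direction, 10 higher and 7 lower. The overlap of calls over all genes was not counted, so these shares are not shown to be particular to sorting genes. Chmp2a, Ehd3 and Vps41 passed in pLKO alone and Ehd4, Snx11, Snx7 and Vps53 in shDRG2 alone, but none of these passed the test of the difference. Not passing does not show that their responses were equal.

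Vps37d had the widest difference among genes above 1 CPM. Its response was larger in shDRG2 by 0.89 on the log2 scale (SE 0.271, 95% interval 0.28 to 1.49, unadjusted p = 0.00827 by edgeR, adjusted p = 1.00). The unstimulated shDRG2 libraries were the lowest of the 8 and the stimulated ones the highest. Snx20 differed by -1.75 (unadjusted p = 0.0451) on a handful of counts, and Snx32 by -0.63. For Snx10 the responses differed by 0.03 (95% interval -0.19 to 0.26), and for Chmp4b by -0.04 (95% interval -0.26 to 0.17).

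Partners of these genes were read from a list of 67 genes, of which 64 were tested. None passed in either knockdown comparison, beside 1.2% of all genes tested without and 1.67% with IFN-γ. In response to IFN-γ 19 rose and 13 fell in pLKO and 18 rose and 13 fell in shDRG2. Over all genes tested 15.4% rose and 12.7% fell in pLKO, and 16.2% rose and 15.2% fell in shDRG2, and the counts of the smaller groups that follow stand beside the same shares. The list was chosen by hand, with earlier results known. Of 14 ESCRT partners, 6 rose and 1 fell in pLKO and 5 rose and 1 fell in shDRG2. Stambp, the deubiquitinase AMSH that acts on endosomal cargo, rose by 0.52 (edgeR adjusted p = 0.00157) and 0.54 (adjusted p = 0.00106), and Vta1, the VPS4 cofactor, by 0.29 (adjusted p = 0.0218) and 0.37 (adjusted p = 0.00582). Of 13 phosphoinositide and early endosome genes, 6 rose and 1 fell in each line, with Pikfyve, the kinase that makes PI(3,5)P2, at 0.89 (adjusted p = 1.34e-05) and 0.98 (adjusted p = 5.50e-06). Of 17 WASH and Commander genes, 3 rose and 4 fell in pLKO and 2 rose and 4 fell in shDRG2.

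Of 12 tested EHD partners and caveolar genes, 1 rose and 4 fell in pLKO and 2 rose and 5 fell in shDRG2. Pacsin1, an F-BAR protein that binds EHD proteins and is best known from neurons, measured 0.244 and 0.156 CPM in pLKO libraries and 45.6 and 42.3 CPM after IFN-γ. In shDRG2 cells it stood at 0.435 and 0.233 CPM and at 57.8 and 48.3 CPM after IFN-γ. The log2 fold changes were 7.74 (edgeR adjusted p = 1.63e-09) and 7.25 (adjusted p = 1.51e-09), against unstimulated groups of 13 and 20 counts. Micall1, which brings EHD1 to recycling tubules, fell by 0.42 (adjusted p = 0.00137) and 0.30 (adjusted p = 0.00835), and Cav1 fell by 0.81 (adjusted p = 0.0309) and 1.34 (adjusted p = 0.00177).

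Of 8 tested cargo genes, 3 rose and 3 fell in pLKO and 3 rose and 2 fell in shDRG2. Cd274, which encodes PD-L1, rose by 4.69 (edgeR adjusted p = 6.31e-10) and 4.89 (adjusted p = 5.04e-10), and the lines differed by -0.00 without IFN-γ (95% interval -0.27 to 0.27) and by 0.19 with it (95% interval -0.02 to 0.40). Sort1, the retromer cargo sortilin, fell by 0.65 (adjusted p = 8.63e-05) and 0.79 (adjusted p = 1.81e-05), and Igf2r, the cation-independent mannose 6-phosphate receptor, fell by 0.58 (adjusted p = 3.10e-04) and 0.57 (adjusted p = 2.96e-04). Other cargo genes went both ways. The mean of M6pr went from 207 to 287 CPM in pLKO and from 200 to 283 CPM in shDRG2. That of Lrp1 went from 67.8 to 115 CPM in pLKO and from 60.3 to 121 CPM in shDRG2. For Tfrc the mean went from 334 to 257 CPM in pLKO and from 363 to 315 CPM in shDRG2.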

How the data were processed

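RNA of B16F10 cells was sequenced in 8 libraries, 2 for each of 4 groups, from RNA with an integrity number above 8.5 per the labels. Estimated counts (expected counts) per gene, with no scaling between libraries, were deposited by the authors, and 86.4% of the nonzero ones were whole to within 0.0015. STAR, Salmon 1.5.2 and mm10 are named in the submitters' processing notes. The table has 45583 entries. The 27 whose names spreadsheet software had turned into dates, with 0.204% to 0.212% of a library's counts, were left out.

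After rounding, edgeR 4.0.16 (R 4.3.3) was applied: filterByExpr (13500 genes), TMM scaling (factors 0.973 to 1.04) and 1 quasi-likelihood fit to all 8 libraries with no covariate (4 residual degrees of freedom, prior 6.10). Two-sided F tests in 5 comparisons were adjusted by Benjamini-Hochberg over all 13500 genes, at 0.05. Fold changes and SE are from this fit. CPM uses TMM-adjusted totals. Levels per kilobase use the merged exons of GENCODE release M21 (GRCm38), the source of the coordinates. Promoters are from RefSeq (GRCm38.p6). The procedure was tested on simulated data.

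The genes and lists were chosen with earlier results of these data known. Named are the genes past the threshold in any comparison, the 5 widest differences of each comparison, the 2 highest in mean level of each role, Vps35, Vps4a, Snx17, Snx27, Chmp4b, the 4 Ehd genes and the untested genes. The 3 Vps genes that stand in the table under older symbols are not in the set. Vps28, of ESCRT-I, and Chmp1b, of ESCRT-III, have no row under those symbols and were not examined. Fibroblast, endothelial, immune, epithelial and melanocytic markers were read in every library, and the 4 epithelial markers summed to at most 0.657 CPM. Alternatives were other scalings, filters, DESeq2 1.42.0, a replicate block, fits to the 4 libraries compared, a threshold of 0.01 and leaving out each library.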

Additional observations from a re-analysis of the deposited data

How the results depend on the processing

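Over 17 alternative settings, 8 of them leaving out 1 library each, the 47 tested genes named by rule gave 3930 values. None turned its direction while called, 3747 stayed on the same side of the threshold, 146 lost a call and 37 gained one. Without IFN-γ the knockdown count of 1 rose to 3 with no filter on low counts and to 3 with the replicate block, and stayed at 1 without any library. With IFN-γ the knockdown count of 2 fell to 1 with scaling by library size alone, to 1 with only the 4 libraries compared and to 1 at an adjusted p of 0.01, and lay between 1 and 2 when a library was left out. The IFN-γ count of 20 in pLKO fell to 11 at an adjusted p of 0.01 and rose to 24 with a stricter filter on low counts. Leaving out 1 library at a time gave 10 (without pLKO replicate 2) to 22. It was 13 without pLKO replicate 1, and 12 without either replicate of pLKO with IFN-γ. The count of 21 in shDRG2 fell to 13 at an adjusted p of 0.01 and rose to 25 with the stricter filter. Leaving out 1 library at a time gave 12 (without replicate 1 of shDRG2 with IFN-γ) to 20. It was 14 without replicate 2 of shDRG2. Calls that held in every alternative numbered 1, 1, 9 and 12 in the knockdown without and with IFN-γ and the IFN-γ response of pLKO and shDRG2. The count for the difference between responses was 0 in every alternative.

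Replicate numbers were not taken as pairs, since the labels do not say what a number shares. Deviations of replicate 1 from its group mean correlated by 0.107 to 0.274 between groups. With the replicate block the counts were 3 and 2 for the knockdown and 29 and 31 for IFN-γ, with Snx30 and Chmp7 called lower without IFN-γ. Of the named genes, the block added Ehd1 (lower), Snx7, Snx11, Snx13, Vps35 (adjusted p = 0.0349) and Vps53 to the IFN-γ calls in pLKO. In shDRG2 it added Ehd1 (lower), Chmp2a, Ehd2, Vps26a (adjusted p = 0.0341), Vps33b, Vps35 (adjusted p = 0.0286) and Vps41. It ended no call of a named gene.

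Averaged over genes, the variance between replicates was 12.9 to 17.3 times that of counting alone. Snx20, Snx22 and Snx32 are limited by depth as well.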

Other observations

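Of the 3 Vps genes that stand in the table under older symbols, 1 rose with IFN-γ in both lines. Over all genes tested 15.4% rose in pLKO and 16.2% in shDRG2. Vps26c (listed as Dscr3), a subunit of the retriever complex that recycles integrins, rose with IFN-γ by 0.24 in pLKO (edgeR adjusted p = 0.0403) and by 0.23 in shDRG2 (adjusted p = 0.0491). Vps35l (listed as 9030624J02Rik), the retriever scaffold, differed by 0.16 and 0.11, and Vps50 (listed as Ccdc132), the EARP subunit, by 0.15 and 0.16, without passing. None of the 3 passed in a knockdown comparison, beside 1.2% of all genes without and 1.67% with IFN-γ. Their log2 differences there were 0.12, 0.14 and 0.11 without IFN-γ and 0.10, 0.09 and 0.12 with it.

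Subunits of the WASH complex, which makes branched actin on endosomes for retromer cargo, and of the Commander complex, which retriever belongs to, passed in opposite directions with IFN-γ. Washc3 (listed as Ccdc53) rose by 0.54 (edgeR adjusted p = 0.00422) and 0.47 (adjusted p = 0.00811), and Washc4 (listed as A230046K03Rik) rose by 0.64 (adjusted p = 4.02e-04) and 0.60 (adjusted p = 5.57e-04). Washc5 (listed as E430025E21Rik) fell by 0.30 (adjusted p = 0.0273) and 0.36 (adjusted p = 0.0104). Of the Commander genes, Ccdc93 fell by 0.46 (adjusted p = 0.00244) and 0.41 (adjusted p = 0.00408), Ccdc22 by 0.27 (adjusted p = 0.0318) and 0.35 (adjusted p = 0.00873), and Commd3 by 0.25 (adjusted p = 0.0303) and 0.39 (adjusted p = 0.00257).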
